A study of Homo sapiens with 6 samples.

Results

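The annexin and S100 genes of BT549 cells were examined after treatment with AS1842856, a small molecule that binds FOXO1 and blocks its binding to DNA. Both groups came from this 1 line, BT549, which was derived from a breast tumour and is classed as basal-like. The DMSO group (replicates A, B and C) received the vehicle, and the AS1842856 group (replicates A, B and C) received the compound at 200 nM by the sample labels, with RNA taken after 48 h in both. The text of the study gives a higher dose, which was not resolved here. The study calls the 3 libraries of each group biological replicates, and no other line, time, dose or FOXO1-depleted sample was among the libraries analysed, so an effect of the compound other than on FOXO1 cannot be told apart from loss of FOXO1 binding. Members were chosen by gene symbol alone: every ANXA gene with a number, every S100A gene with a number, and S100B, S100G, S100P, S100Z and S100PBP. This rule found 34 of the 58735 genes counted, namely 12 annexin genes, 21 S100 genes and S100PBP, which encodes an S100-binding protein and is not itself an S100 gene. One of the 21 S100 entries, S100A15A, is annotated as a processed pseudogene.

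Annexins are cytosolic proteins that bind acidic phospholipids when calcium rises, and thereby attach to the plasma membrane and to vesicles. S100 proteins are small EF-hand calcium sensors that mostly act as dimers. Both families meet physically, since S100A10 pairs with annexin A2 and S100A11 pairs with annexin A1, and both are known in breast cancer cells for roles in membrane repair, motility, plasminogen activation and signalling outside the cell. S100A10 is the exception among S100 proteins in that it no longer needs calcium to hold its active shape.

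Library totals lay between 15289500 and 22981832 counts, so a count of 3 corresponded to 0.131 to 0.195 CPM (counts per 1000000 counts of a library, scaled by the TMM factors of edgeR). These limits cover counting error only. Of all 34 members, 15 had enough counts to be tested (8 annexin genes, 6 S100 genes and S100PBP). A gene could reach the test through the group in which it was high, so counts over these 15 genes describe them and not the whole families. All 6 markers of a mesenchymal basal-like breast line were well above 0 and were called, 4 lower and 2 higher. VIM (vimentin) was at 1322 CPM in DMSO and 1046 CPM with AS1842856, CD44 at 897.5 and 655.3 CPM, FN1 (fibronectin) at 449.5 and 981.1 CPM, and ZEB1 at 69.7 and 98.5 CPM. By contrast, ESR1, PGR, EPCAM and CDH1 did not exceed a mean of 0.263 CPM in either group. Of the other luminal markers, KRT8 and KRT18 fell with treatment, from 40.9 to 4.15 CPM and from 33.9 to 3.45 CPM, and GATA3 rose from 50.9 to 61.7 CPM. Of 6 leucocyte markers only PTPRC had enough counts to be tested, the summed level of the list lay between 0.807 and 1.69 CPM in DMSO and between 2.82 and 3.59 CPM with AS1842856, and CD3E and MPO were at 0 in every library. The 4 endothelial markers summed to at most 0.360 CPM, and the keratinocyte list summed to 35.8 to 42.5 CPM in DMSO and 33.99 to 41.7 CPM with AS1842856, most of it KRT10. The part of these marker changes in the results below was not tested, and in RNA from a whole culture fewer cells of a kind and less RNA per cell cannot be told apart.

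AS1842856 was followed by lower RNA of most annexin genes that BT549 cells express, while the S100 genes moved in both directions. Of 8 annexin genes tested, 6 fell (ANXA1, ANXA7, ANXA5, ANXA11, ANXA6 and ANXA4) and none rose by edgeR's quasi-likelihood test with a Benjamini-Hochberg adjusted p under 0.05. Of 6 S100 genes tested, S100A10 and S100A2 rose and S100A4 and S100A13 fell. S100PBP was also lower, with an adjusted p close to the threshold. The treatment changed a large part of the transcriptome: 56.0% of the 14338 genes tested passed the same threshold (were called), 27.6% as higher and 28.4% as lower, and the 3 libraries of each group did not overlap for 59.9% of genes. Against that background 11 of the 15 members were called, and the same 11 did not overlap between groups. The median log2 fold change was −0.32 for the 8 annexin genes and 0.02 for the 6 S100 genes, against 0.003 for all genes tested.

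**Figure D1:**
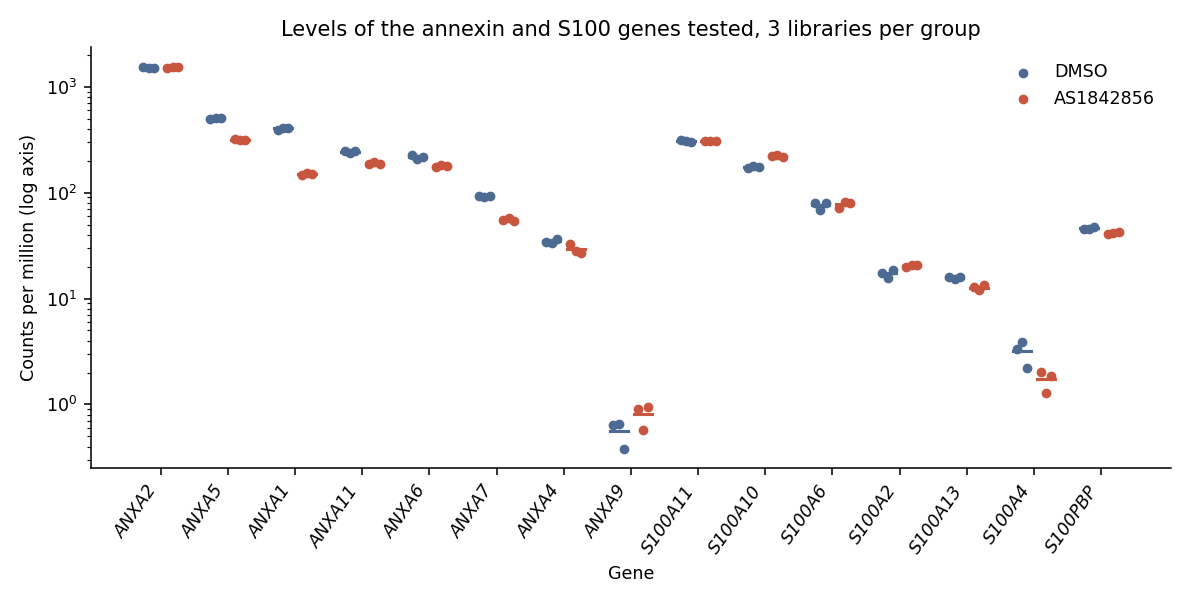
CPM (log axis) of the 15 members tested, with a point for each of 3 DMSO and 3 AS1842856 libraries and a line at each group mean. ANXA1, ANXA5 and ANXA7 show the widest gaps between groups at a high level, whereas the points of ANXA2, S100A11 and S100A6 overlap.

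Annexin A1 is the glucocorticoid-inducible annexin, known for limiting phospholipase A2 activity and for signalling through formyl peptide receptors. Its gene (ENSG00000135046, chromosome 9, 73151757 to 73170393, plus strand, GRCh38) had 393.1, 410.6 and 408.2 CPM in the DMSO libraries. In the AS1842856 libraries ANXA1 had 147.0, 154.1 and 150.0 CPM. All treated libraries were thus far below all controls, and the mean went from 404 ± 9.50 to 150.3 ± 3.60 CPM (SD, n = 3), to 37.3% of the DMSO level. The log2 fold change of −1.42 (SE 0.04, edgeR adjusted p = 3.01e-103) was the largest change among the members and lay beyond the 5th percentile of all genes tested, −1.14.

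Annexin A5 binds phosphatidylserine and is the protein used to stain apoptotic cells. ANXA5 (ENSG00000164111, chromosome 4, 121667955 to 121697113, minus strand) had 497.3, 504.4 and 510.6 CPM in DMSO and 318.6, 314.2 and 317.4 CPM with AS1842856. The groups did not overlap, and the means were 504.1 ± 6.64 and 316.8 ± 2.27 CPM, with a log2 fold change of −0.67 (SE 0.03, edgeR adjusted p = 1.43e-49). Annexin A7, also called synexin, was named for fusing chromaffin granules. ANXA7 (ENSG00000138279, chromosome 10, 73375101 to 73414076, minus strand) had 92.9, 91.4 and 92.1 CPM in DMSO and 54.7, 57.9 and 53.7 CPM with AS1842856. Every treated library again lay below every control, and the log2 fold change was −0.73 (SE 0.05, edgeR adjusted p = 1.27e-33). The order of ANXA7 and ANXA5 was not resolved, since the ratio of their counts overlapped between groups, at 0.187, 0.181 and 0.181 in DMSO and 0.172, 0.184 and 0.169 with AS1842856 (exact permutation test, two-sided, p = 0.3, 3 libraries against 3).

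The other annexin genes that fell did so by less. Annexin A11, which tethers RNA granules to lysosomes, is encoded by ANXA11, which had 245.0, 237.3 and 245.3 CPM in DMSO and 185.8, 193.1 and 186.0 CPM with AS1842856, a log2 fold change of −0.37 (SE 0.04, edgeR adjusted p = 4.39e-18). Annexin A6 is the long annexin with a duplicated core and is known as a scaffold for RAS and protein kinase C regulators. ANXA6 had 225.5, 206.3 and 218.8 CPM in DMSO and 175.0, 181.9 and 178.6 CPM with AS1842856, a log2 fold change of −0.28 (SE 0.04, edgeR adjusted p = 1.75e-11). Annexin A4, found mainly in epithelia, is encoded by ANXA4, which had 34.4, 33.8 and 36.2 CPM in DMSO and 32.5, 28.2 and 26.9 CPM with AS1842856, a log2 fold change of −0.26 (SE 0.07, edgeR adjusted p = 9.30e-04). For all 3 genes the groups stood apart, ANXA4 by the smallest margin, between 33.8 CPM in the lowest control and 32.5 CPM in the highest treated library. The ratio of ANXA4 to ANXA6 overlapped between groups (exact permutation test, two-sided, p = 0.9, 3 libraries against 3), so their falls were not ordered by these data. The call of ANXA4 was lost when log2(FPKM + 1) was tested by limma with no filter on low values (adjusted p = 0.108).

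Annexin A2, the partner of S100A10 and a cell-surface receptor for plasminogen and its activator, is the annexin gene with the most counts. ANXA2 (ENSG00000182718, chromosome 15, 60347134 to 60402883, minus strand) had 1530, 1508 and 1515 CPM in DMSO and 1509, 1546 and 1553 CPM with AS1842856. The groups overlapped, the log2 fold change was 0.02 (SE 0.03, edgeR adjusted p = 0.662), and its 95% interval ran from −0.05 to 0.08. The processed copy ANXA2P2, whose reads can be confused with those of ANXA2, was at 5.93 CPM in DMSO and 6.02 CPM with AS1842856. Reads that fit both may not have been counted for either. ANXA9, an annexin reported to lack the usual calcium-binding residues, was near the lower limit of the test, with 0.638, 0.651 and 0.377 CPM in DMSO and 0.900, 0.569 and 0.953 CPM with AS1842856. Its groups overlapped as well, and its log2 fold change of 0.51 had a 95% interval from −0.35 to 1.37 (edgeR adjusted p = 0.329), which includes changes in both directions.

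**Figure D2:**
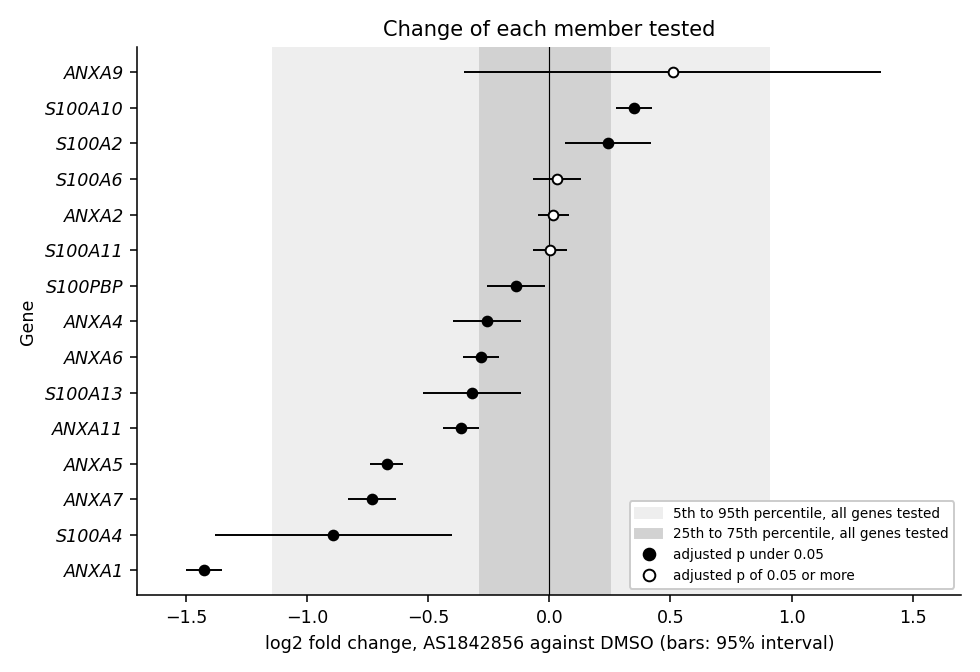
The log2 fold change of each of the 15 members tested (x axis, AS1842856 against DMSO, bars for the 95% interval, filled points for an adjusted p under 0.05), over shaded bands for the 25th to 75th and the 5th to 95th percentiles of all 14338 genes tested. ANXA1 at −1.42 is the only member outside the wider band.

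The fall of some annexins and the steady level of ANXA2 altered the make-up of the annexin RNA pool. The summed level of all 12 annexin genes, 4 of them not tested, was 3020, 2993 and 3027 CPM in DMSO. With AS1842856 it was 2424, 2477 and 2467 CPM. ANXA2 held 50.4% ± 0.311 (SD, n = 3) of that sum in DMSO and 62.5% ± 0.373 with AS1842856. The ANXA1 share went from 13.4% ± 0.357 to 6.12% ± 0.0885, and that of ANXA5 from 16.7% ± 0.225 to 12.9% ± 0.227, while ANXA6 held 7.20% ± 0.289 and 7.27% ± 0.0679. The ratio of ANXA1 to ANXA2 counts was 0.257, 0.272 and 0.270 in DMSO and 0.0974, 0.0997 and 0.0966 with AS1842856. Those ratios did not overlap, which gives p = 0.1 by the two-sided exact permutation test, the smallest value that 3 libraries against 3 allow (0.16 after Benjamini-Hochberg adjustment over the 8 ratios computed).

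**Figure D3:**
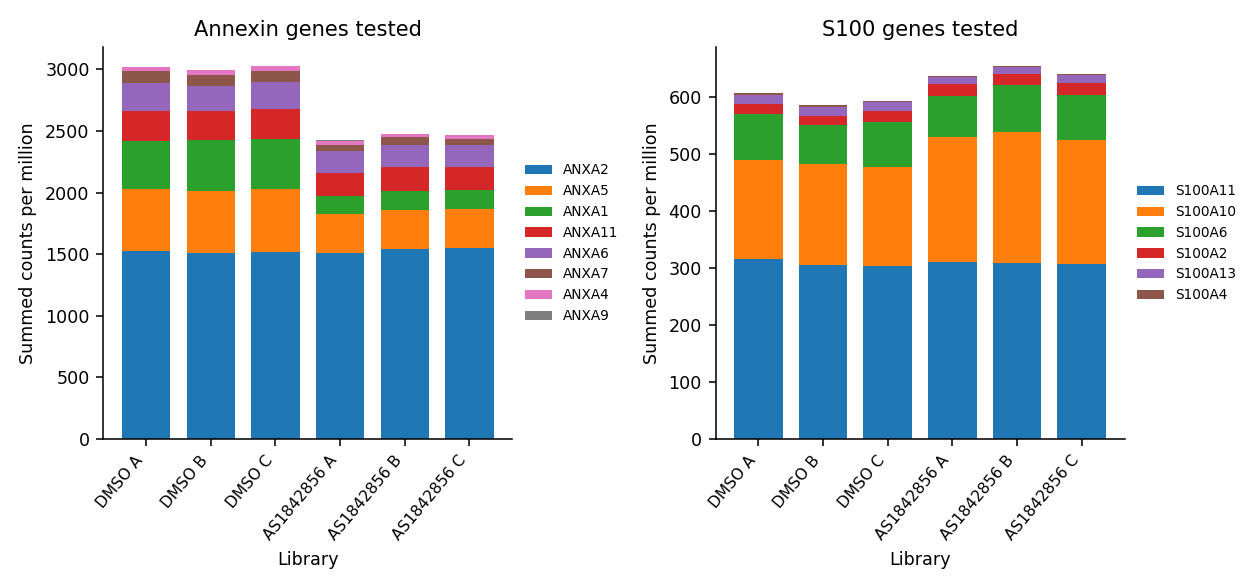
Summed CPM of the annexin genes (left) and S100 genes (right) tested, as stacked bars from 0 with 1 bar per library and 1 colour per gene. The ANXA2 segment is at a similar height in all 6 bars. Sums that include the genes not tested, which add little, are 2993 to 3027 in DMSO and 2424 to 2477 with AS1842856 for annexin genes. For S100 genes they are 586 to 607 and 638 to 655.

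Promoter sequence was compared for the 3 annexin genes whose log2 fold change was −0.5 or lower, to show how far genes that moved the same way resemble each other there. RefSeq promoters (GRCh38.p14) were used, and the stretches shown lie within the 250 bases before the annotated start and outside every annotated exon. Capitals mark CG dinucleotides, the sites of cytosine methylation in mammals. The ANXA1 stretch is chr9:73151615-73151756 (plus strand), that of ANXA5 is chr4:121697114-121697230 (minus strand), and that of ANXA7 is chr10:73414077-73414308 (minus strand).
ANXA1: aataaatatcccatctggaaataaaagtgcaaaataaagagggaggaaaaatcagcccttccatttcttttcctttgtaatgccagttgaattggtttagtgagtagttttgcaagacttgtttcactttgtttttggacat
ANXA5: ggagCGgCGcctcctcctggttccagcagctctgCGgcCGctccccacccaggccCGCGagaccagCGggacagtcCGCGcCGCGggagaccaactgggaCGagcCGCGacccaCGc
ANXA7: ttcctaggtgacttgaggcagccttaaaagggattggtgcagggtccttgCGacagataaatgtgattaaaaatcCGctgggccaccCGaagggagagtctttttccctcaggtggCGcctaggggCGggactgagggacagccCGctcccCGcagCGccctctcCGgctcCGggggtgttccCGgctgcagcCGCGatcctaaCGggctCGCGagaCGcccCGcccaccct

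The whole 250 bases before the start of ANXA1 held 0 CG dinucleotides and 38.4% G or C, those of ANXA5 held 31 and 78.8%, and those of ANXA7 held 20 and 66.0%. A promoter without any CG was found for 1.37% of 14839 promoters of genes tested, whose median was 20. The ANXA1 promoter thus stood apart in base composition, while those of ANXA5 and ANXA7 were at or above that median. All 3 genes fell, and whether base composition bears on the fall was not tested. S100A10, the S100 gene that rose most, had 24 CG dinucleotides and 71.2% G or C in the same window, and its letters are not printed because an annotated untranslated exon covers the window.

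Of the 34 members, 30 had a promoter in the RefSeq table, and all 15 members tested had at least 1, 24 promoters in all. These 300-base windows (250 bases before and 50 after the start) were searched on both strands for the FOXO core motif GTAAACA, the insulin response element CAAAACA, the AP-1 motif TGANTCA and the TCF/LEF motif CTTTGAT. The FOXO core motif was in 3.42% of all 35116 promoters, in 2.57% of the 14839 promoters of genes tested and in none of these 24. For the insulin response element the shares were 4.92% and 3.44%, with none of the 24. The AP-1 motif was in 7.71% of all promoters, in 5.14% of those of genes tested and in 3 of the 24, as TGAGTCA 127 bases before the start of ANXA2, TGACTCA 52 bases before that of S100A2, and TGACTCA 149 bases before that of S100PBP. The TCF/LEF motif in the form CTTTGAT was in 2.62% of all promoters, in 1.55% of those of genes tested and in none of the 24. Other forms of this site were not searched. Among members that were not tested, S100A3 and S100Z had GTAAACA just after the start. S100A3, S100A5 and S100A12 had the AP-1 motif before the start, and S100G had CTTTGAT just after it. A match here is only a description of letters, and no match says only that these letters are not in this window.

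The S100 gene with the largest called rise was S100A10, the calcium-independent partner of annexin A2 (also called p11), which helps to place channels and the plasminogen receptor complex at the cell surface. S100A10 (ENSG00000197747, chromosome 1, 151982915 to 151994390, minus strand) had 172.6, 176.6 and 173.5 CPM in DMSO and 219.7, 228.8 and 217.2 CPM with AS1842856. All treated libraries were above all controls, with means of 174.2 ± 2.08 and 221.9 ± 6.13 CPM and a log2 fold change of 0.35 (SE 0.04, edgeR adjusted p = 1.59e-16). With ANXA2 steady, the ratio of S100A10 to ANXA2 counts went from 0.113, 0.117 and 0.115 in DMSO to 0.146, 0.148 and 0.140 with AS1842856. These ratios did not overlap (exact permutation test, two-sided, p = 0.1, and 0.16 over the 8 ratios), and they compare RNA counts of both genes without a length correction, not the proteins of the complex.

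S100A11, the partner of annexin A1 that is also known in keratinocyte growth arrest and in plasma membrane repair, had the most counts of any S100 gene. S100A11 (ENSG00000163191, chromosome 1, 152032506 to 152047907, minus strand) had 316.2, 305.2 and 303.1 CPM in DMSO and 310.2, 308.9 and 307.2 CPM with AS1842856. The groups overlapped, and the log2 fold change was 0.00 (SE 0.04, edgeR adjusted p = 0.961) with a 95% interval from −0.07 to 0.07. As ANXA1 fell, the ratio of S100A11 to ANXA1 counts went from 0.804, 0.743 and 0.743 to 2.111, 2.004 and 2.049 (exact permutation test, two-sided, p = 0.1, and 0.16 over the 8 ratios). The ratio of S100A11 to ANXA2 overlapped between groups, with means of 0.203 ± 0.00335 and 0.201 ± 0.00405 (exact permutation test, two-sided, p = 0.5, 3 libraries against 3).

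S100A6, or calcyclin, binds the ubiquitin ligase adaptor CACYBP and is known from proliferating cells. S100A6 (ENSG00000197956, chromosome 1, 153534599 to 153536244, minus strand) had 80.5, 68.6 and 79.5 CPM in DMSO and 72.2, 82.2 and 79.4 CPM with AS1842856. Again the groups overlapped, and the log2 fold change of 0.03 (SE 0.05, edgeR adjusted p = 0.637) had a 95% interval from −0.07 to 0.13.

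S100A4, also called metastasin or FSP1, binds nonmuscle myosin IIA and is used as a marker of fibroblast-like cells. It was sparse in BT549 cells: S100A4 (ENSG00000196154, chromosome 1, 153543613 to 153550136, minus strand) had 74, 60 and 41 reads, or 3.37, 3.91 and 2.21 CPM, in DMSO, and 34, 29 and 33 reads, or 2.04, 1.27 and 1.85 CPM, with AS1842856. The lowest control, replicate C, stood just above the highest treated library. The log2 fold change was −0.89 (SE 0.25, edgeR adjusted p = 0.00108), with a 95% interval from −1.38 to −0.40, and it ranged from −1.10 to −0.69 when each library was left out in turn. The call was lost in limma on log2(FPKM + 1) with no filter (−0.60, adjusted p = 0.0689).

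S100A2, which is known from basal epithelial cells, had 17.4, 15.7 and 18.7 CPM in DMSO and 19.9, 20.9 and 20.6 CPM with AS1842856. The groups did not overlap, and the log2 fold change was 0.24 (SE 0.09, edgeR adjusted p = 0.0153). DESeq2 did not call S100A2 (adjusted p = 0.0781), nor did edgeR without DMSO replicate B (0.110) or without AS1842856 replicate B (0.0602). S100A13, known for the release of FGF1 from cells, had 16.1, 15.4 and 15.8 CPM in DMSO and 12.8, 11.9 and 13.4 CPM with AS1842856, also without overlap, and a log2 fold change of −0.32 (SE 0.10, edgeR adjusted p = 0.00476). S100A13 shares 235 exonic bases with S100A1 on the opposite strand, and S100A1 had 52 reads over the 6 libraries against 1606 for S100A13.

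S100PBP, which binds S100P in the nucleus, had 45.4, 45.6 and 47.4 CPM in DMSO and 41.0, 42.0 and 42.7 CPM with AS1842856. The groups did not overlap, but the log2 fold change was only −0.14 (SE 0.06, edgeR adjusted p = 0.0427), and the adjusted p was 0.05 or higher in 9 of 15 alternative fits, reaching 0.134 with DESeq2. Its exons share 396 bases with YARS on the opposite strand, which had 33416 reads against 4983 for S100PBP, and whether counting used strand is not given in the sources used here. S100P itself had 1 read in all 6 libraries.

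Of the 21 S100 genes, 17 lie on chromosome 1 between 151982915 and 153632039 (GRCh38), a span of 1.65 Mb that also holds genes of the cornified envelope. S100A10 and S100A11, at the start of the span, were followed by 6 entries with 0 reads in every library (S100A9, S100A12, S100A8, S100A15A, S100A7A and S100A7), which include the calprotectin genes of neutrophils and the psoriasin genes of inflamed skin. Beyond them came S100A6, S100A5, S100A4, S100A3 and S100A2, of which S100A6 was at 76.2 CPM and S100A3 and S100A5 had a mean below 0.3 CPM in both groups. S100A16 and S100A14, between S100A2 and S100A13, were almost without reads. The direction of change did not follow the order either, since S100A2 rose between S100A4 and S100A13, both of which fell.

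**Figure D4:**
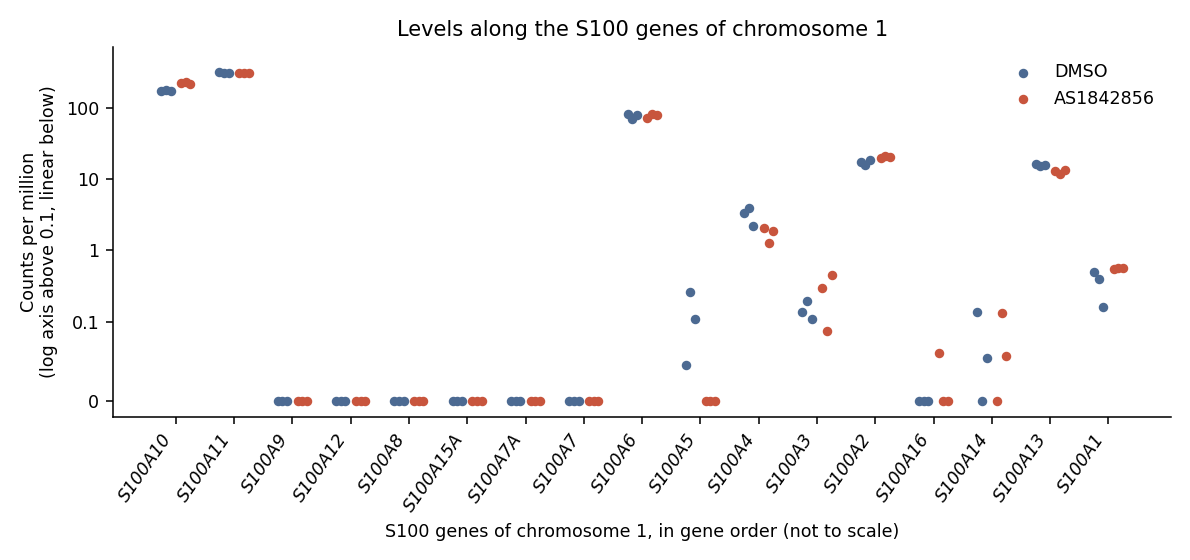
CPM of the 17 S100 genes of chromosome 1 in gene order (x axis, not to scale; y axis logarithmic above 0.1 and linear below), with a point per library. Points of 6 neighbouring genes lie at 0 in both groups, between S100A11 and S100A6, which exceed 68 in every library.

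Of the 19 members that were not tested, 8 had 0 reads in all 6 libraries: S100A7, S100A7A, S100A8, S100A9, S100A12, S100A15A, S100B and S100Z. Their level was therefore not detectable at this depth. The other 11 had few reads. ANXA10, a gastric annexin, had 11, 0 and 4 reads in DMSO and 14, 16 and 9 with AS1842856. ANXA3 had 10, 11 and 3 reads against 5, 0 and 2, S100A1, the cardiac S100 gene, had 11, 6 and 3 against 9, 13 and 10, and S100A5 had 1, 4 and 2 against 0 in every treated library. On the CPM scale the groups overlapped for ANXA3 but not for S100A1, S100A5 or ANXA10, the last by the narrowest margin (0.501 CPM in the highest control and 0.505 CPM in the lowest treated library), all at counts too low for a test. ANXA8, ANXA13, S100A3, S100A14, S100A16, S100G and S100P had between 0 and 8 reads in any library, and no fold is given for them. Of these, ANXA8 did not overlap between groups, at 0.09, 0.13 and 0.16 CPM in DMSO and 0.06, 0 and 0 CPM with AS1842856. The share without overlap among genes at such counts was not computed. ANXA10 passed the filter in 4 of the fits that left out a library. It was called without DMSO replicate A, at a log2 fold change of 2.47 (edgeR adjusted p = 0.00407), and without AS1842856 replicate C, at 1.51 (edgeR adjusted p = 0.0266), but not without DMSO replicate B, at 0.87 (edgeR adjusted p = 0.199), or DMSO replicate C, at 1.22 (edgeR adjusted p = 0.0931). S100A1 passed the filter in 5 such fits and was called in none, with edgeR adjusted p from 0.185 to 0.702.

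Another 9 genes carry an ANXA or S100 symbol without being members, mostly pseudogenes and near-identical copies. Only ANXA2P2 and ANXA2R, a receptor proposed for annexin A2, had enough reads, and neither was called, with log2 fold changes of 0.02 and 0.15 (edgeR adjusted p = 0.913 and 0.586). ANXA8L1, the near-identical neighbour of ANXA8, had at most 4 reads in a library, and reads that fit both of this pair may not have been counted.

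Levels between genes can be compared only per length, and here the choice of length mattered. On the deposited FPKM scale (reads scaled by gene length and library size), S100A11 had the highest level of the members, with a mean of 450.3 ± 10.7 (SD, n = 3) in DMSO and 451.3 ± 2.75 with AS1842856, rank 47 and rank 48 of 25015 genes. ANXA2 came next at 170.9 ± 1.52 and 173.0 ± 2.51 FPKM. ANXA5 went from 165.1 ± 2.11 to 103.8 ± 0.778 FPKM (rank 180 to rank 349), S100A10 from 112.2 ± 1.17 to 142.9 ± 3.995 FPKM (rank 311 to rank 225), and ANXA1 from 88.0 ± 1.97 to 32.8 ± 0.771 FPKM (rank 431 to rank 1465). S100A6 had a mean level of 78.0 FPKM in DMSO and 79.7 FPKM with AS1842856. So S100A10, which was below ANXA5 in DMSO, was above it after treatment on this scale. Below these genes came ANXA6, ANXA7 and ANXA11 at 28.3 to 39.7 FPKM in DMSO, S100A2 at 10.9, S100A13 at 7.07, S100PBP at 4.99, ANXA4 at 3.13, S100A4 at 3.06 and ANXA9 at 0.302 FPKM. In DMSO, ANXA4 and S100A4 differed by less than the spread of S100A4 (SD 0.840 FPKM), but with AS1842856 they stood at 2.63 ± 0.268 and 1.67 ± 0.390 FPKM, and per kilobase of the longest principal transcript at 12.4 and 5.27 CPM in DMSO.

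The lengths behind the deposited FPKM matched, within 1%, the summed exonic length over all annotated transcripts for 99.3% of 25015 genes and for all 23 members listed. That length is 8824 bases for ANXA2, which has 38 annotated transcripts, while its longest principal transcript has 1676 bases, and for S100A11 the lengths are 680 and 594 bases. Per kilobase of principal transcript, ANXA2 stood at 905.4 CPM and S100A11 at 518.7 CPM in DMSO, so the ratio of ANXA2 to S100A11 was 0.380 on the FPKM scale and 1.75 on the other. The order of these genes thus turned with the length, whereas a fold change between groups, with 1 length per gene, does not depend on it. S100A10 and ANXA5 stood at 145 and 286 CPM per kilobase of principal transcript in DMSO and at 184.6 and 179.8 with AS1842856, so on this scale they came close to equal where the FPKM put S100A10 clearly higher.

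**Figure D5:**
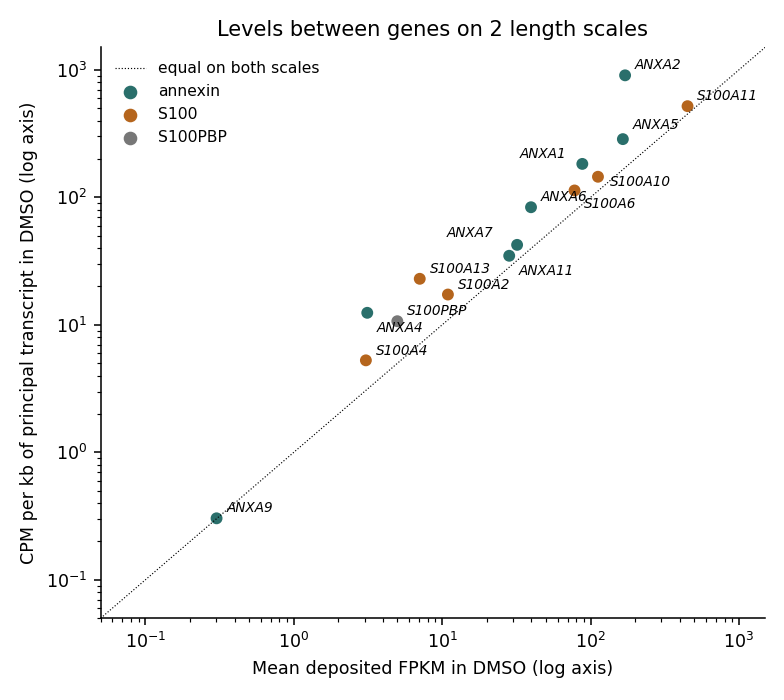
Mean deposited FPKM in DMSO (x axis, log) against CPM per kilobase of the longest principal transcript in DMSO (y axis, log) for the 15 members tested, coloured by family, with a dotted line where both scales are equal. ANXA2 lies well above the line at 170.9 FPKM and 905.4 CPM per kilobase, and S100A11 lies near it.

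Genes of proteins that S100s and annexins bind inside the cell showed RNA changes in both directions. Of 15 such genes, all of which were tested, 4 rose, 6 fell and 5 did not pass the test, with a median log2 fold change of −0.03. Over all 14338 genes tested, 27.6% were called higher and 28.4% lower, the background for this list and those that follow. PLA2G4A, the cytosolic phospholipase A2 that annexin A1 and S100A10 are known to inhibit, had 8.02, 8.33 and 8.18 CPM in DMSO and 36.5, 38.6 and 34.2 CPM with AS1842856. It had the largest rise of the list, with no overlap and a log2 fold change of 2.16 (SE 0.09, edgeR adjusted p = 6.23e-63). RASA1, the RAS GTPase-activating protein that binds annexin A6, had 163.2, 169.8 and 157.8 CPM in DMSO and 63.0, 62.5 and 60.7 CPM with AS1842856, the largest fall (log2 fold change −1.40, SE 0.04, edgeR adjusted p = 1.42e-85). Among the genes with the most counts, MYH9, the heavy chain of the nonmuscle myosin that S100A4 binds, rose by 0.17 on the log2 scale, and IQGAP1, a scaffold bound by several S100 proteins, fell by 0.14.

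Genes of plasma membrane repair, in which annexins patch the lesion, were also split. Of 13 tested among 15, 6 rose, 6 fell and 1 did not pass, with a median log2 fold change of 0.12. The shares over all genes tested were also close to even, 27.6% higher and 28.4% lower. CAPN2, the large subunit of m-calpain, rose most and had the most counts, from 759.3, 774.4 and 778.4 CPM to 1089, 1081 and 1074 CPM (log2 fold change 0.49, SE 0.03, edgeR adjusted p = 4.09e-35). AHNAK2, a relative of the giant scaffold AHNAK, fell most, from 45.2, 46.2 and 39.0 CPM to 16.2, 17.6 and 19.0 CPM (log2 fold change −1.30, SE 0.08, edgeR adjusted p = 9.86e-43). MYOF, a ferlin that acts in vesicle fusion, fell by 0.53 on the log2 scale. AHNAK, named after its values were seen because it binds the complex of annexin A2 and S100A10, fell by 0.85, from 350.6, 322.8 and 288.9 CPM to 175.2, 181.4 and 179.1 CPM. DYSF and TRIM72, the dysferlin and MG53 genes of muscle, had at most 2 reads in any library.

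Receptors and extracellular partners were in part without reads. FPR1 and FPR2, the formyl peptide receptors of annexin A1, and TLR4, a receptor for calprotectin, had 0 reads in all 6 libraries, as did plasminogen (PLG). AGER, which encodes RAGE, the receptor for several secreted S100 proteins, was present at 9.16, 8.46 and 9.80 CPM in DMSO and 8.94, 9.59 and 9.65 CPM with AS1842856, with a log2 fold change of 0.04 (95% interval −0.20 to 0.28, edgeR adjusted p = 0.814). Of 5 genes tested among the 10, 1 rose, 1 fell and 3 did not pass. PLAT, the tissue plasminogen activator that the annexin A2 complex binds, fell from 47.5, 50.5 and 45.1 CPM to 27.8, 28.0 and 31.3 CPM (log2 fold change −0.72, SE 0.07, edgeR adjusted p = 1.38e-21). BSG, which encodes basigin, a receptor for S100A9, was called higher at a log2 fold change of 0.08 (edgeR adjusted p = 0.0295), although its groups overlapped, at 644.8, 592.0 and 587.9 CPM against 633.8, 639.9 and 659.4 CPM. DESeq2 and 4 of the 6 fits with a library left out (without DMSO B or C, or AS1842856 B or C) did not call BSG, which left PLAT as the 1 gene called.

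Other EF-hand calcium sensors, distant relatives of the S100 proteins, gave 3 genes higher and 14 lower of 23 tested among 30, with 6 not passing and a median log2 fold change of −0.24. Over all genes tested, 27.6% were higher and 28.4% lower, and whether this list differs from that was not tested. Their summed level lay between 3472 and 3547 CPM in DMSO and between 3051 and 3061 CPM with AS1842856. CALM3, a calmodulin gene with the highest mean CPM of the list in DMSO, fell from 593.6, 564.4 and 575.2 CPM to 399.6, 391.2 and 419.7 CPM (log2 fold change −0.52, SE 0.03, edgeR adjusted p = 1.90e-35). CALU, the secretory pathway protein calumenin, fell by 0.08 on the log2 scale. With AS1842856 it had the highest mean, 532.7 CPM against 403.5 CPM for CALM3. GCA, grancalcin, had the largest fall, −1.07, at 1.01 to 3.19 CPM, and NCS1, a neuronal calcium sensor, the largest rise, 0.27.

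Genes that move calcium into the cytosol and out of it were tested as 18 of 23, of which 7 rose, 6 fell and 5 did not pass, with a median log2 fold change of 0.12. Beside these counts, 27.6% of all genes tested were higher and 28.4% lower. ATP2B2, a plasma membrane calcium pump, had 15.9, 13.2 and 12.0 CPM in DMSO and 0.840, 0.438 and 0.785 CPM with AS1842856, a log2 fold change of −4.36 (SE 0.20, edgeR adjusted p = 5.02e-59). The pump with the most counts, ATP2B4, fell by 0.35, and the reticulum pump ATP2A2 rose by 0.11 on the log2 scale. ITPR2, an inositol trisphosphate receptor that releases stored calcium, had the largest rise, from 22.9, 20.3 and 20.8 CPM to 30.8, 35.4 and 34.5 CPM (log2 fold change 0.65, SE 0.08, edgeR adjusted p = 1.52e-14).

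The epidermal differentiation genes that neighbour the S100 genes on chromosome 1 were mostly silent. Of 17 such genes, 12 had 0 reads in every library and 2 were tested. FLG, the fused-type S100 gene of filaggrin, had 4.28, 4.36 and 4.68 CPM in DMSO and 2.16, 3.33 and 2.97 CPM with AS1842856, with no overlap and a log2 fold change of −0.64 (SE 0.20, edgeR adjusted p = 0.00315). The lists of partners, repair genes, calcium sensors and calcium transporters were described by counts of calls, medians and a few named genes. No list was tested as a whole, so nothing in them was shown to be particular to the annexin and S100 genes.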

How the data were processed

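RNA-Seq was analysed in 6 libraries of BT549 cells, 3 with DMSO and 3 with AS1842856. The authors deposited raw counts per gene, without normalization, and FPKM values per library, made after mapping with STAR. The submitters' processing notes also name CASAVA, Bowtie 0.12.2 and GRCh38. The counting tool, the annotation and the strand setting are not given in the sources used here. All 58735 gene identifiers matched GENCODE release 29 (Ensembl 94), which gave symbols, positions and lengths.

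Testing of counts used edgeR 4.0.16 under R 4.3.3. The filter filterByExpr (minimum count 10, minimum total 15) left 14338 genes with 99.9% of all counts, and could be passed through either group. TMM factors lay between 0.995 and 1.01. Groups were compared by glmQLFit and glmQLFTest with Benjamini-Hochberg adjustment over all genes tested, at a threshold of 0.05, with no block. The biological coefficient of variation was 0.0374. Replicate pairs differed by more than sampling noise (chi-square per degree of freedom 2.36 to 3.27). The 95% intervals are the log2 fold change with a normal multiple of its standard error. Ratios of counts were compared by exact permutation tests (scipy 1.17.1).

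Alternatives were DESeq2 1.42.0, library totals, other filters, limma 3.58.1 on log2(FPKM + 1) and log2(FPKM + 0.1), the replicate letter as a block and each library left out. Levels per principal transcript length were added after the data were seen. All members were named. Full statistics were given for those called with an absolute log2 fold change of at least 0.5 and for the 5 with the highest FPKM, and the other members tested were given with their values and fold change. Of the other lists, the largest called rise and fall and the 2 genes with the most counts were named. The promoters of ANXA5 and ANXA7 were chosen after their values were seen. The members and lists were chosen with earlier results of these data known, and the lists were written from general knowledge. Results of some single genes of these lists are not reported here.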

Additional observations from a re-analysis of the deposited data

How the results depend on the processing

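Of 221 log2 fold changes of the 15 members tested under alternatives (9 with all libraries and 6 with a library left out), 199 kept their direction and side of the threshold, 14 lost their call, 0 gained one and 8 changed sign. Apart from these, ANXA10, which was not tested with all libraries, gained a call without DMSO replicate A and without AS1842856 replicate C. The calls of ANXA1, ANXA5, ANXA6, ANXA7, ANXA11, S100A10 and S100A13 held in all 15 fits. The sign changes concerned genes that were not called: S100A11 (−0.0014 with library totals, −0.0114 with no filter, −0.0028 with a mean of at least 50 counts, and −0.0146 to 0.0188 with a library left out) and S100A6 (−0.0391 to 0.0781 with a library left out). The receptors and extracellular partners gave 1 call with DESeq2 and with the replicate block, and 1 to 2 with a library left out. ANXA2 over S100A11 was 0.380 by FPKM and 1.75 per principal transcript length, by construction of the lengths. The replicate letters did not pair the samples (correlations of same-letter deviations 0.04, −0.01 and −0.003), and the replicate block moved the adjusted p of S100PBP to 0.0515. Dose, 1 cell line and bulk RNA limit all results. Members under 0.131 to 0.195 CPM, the level of 3 reads in a library, had too few reads for a test. That level was not the limit of the test. S100A1, at means of 0.351 CPM in DMSO and 0.557 CPM with AS1842856, was above it and was not tested either.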
